A study of Homo sapiens with 26 samples.

Results

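The EGR transcription factors and their NAB corepressors were followed across 26 RNA libraries made near the plasma membrane of HEK293T cells. The genes were taken by name (EGR1, EGR2, EGR3, EGR4, NAB1 and NAB2), and the family was chosen by the labeled minus control differences of EGR1 and EGR3 in these same libraries. Of these 6 genes, 5 had a row among the 25745 genes of the deposited matrix, and levels of EGR4 were not analysed here. In short, EGR1 mRNA was 14.9-fold and 21.3-fold higher in labeled than in control libraries with APEX2 on the inner side of the membrane (Lyn11 and Lck) and 4.26-fold and 3.86-fold higher with APEX2 on the outer side (CD28 and PDGFR). EGR3 was higher in the labeled libraries of 3 constructs, EGR2 had at most 44 reads in any library and was higher in every labeled than in every control library with Lck alone, and NAB1 and NAB2 differed by at most 0.45 log2 units in either direction.

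EGR1, EGR2, EGR3 and EGR4 are zinc finger proteins that bind GC-rich DNA. They belong to the immediate early genes, which are transcribed within minutes of a growth factor or stress signal because the proteins that switch them on, serum response factor and its ternary complex partners such as ELK1, are already present in the cell. NAB1 and NAB2 bind an inhibitory domain of EGR1, EGR2 and EGR3 and repress their activity, NAB2 in part by recruiting the NuRD chromatin complex through CHD4. NAB2 is itself a target of EGR proteins, which closes a negative feedback loop. HEK293T cells, an established line from human embryonic kidney, express SV40 large T antigen and were grown in serum here.

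The study used APEX2, a peroxidase that tags nearby molecules with biotin. Cells stably expressed APEX2 fused to Lyn11 or Lck sequences (called inside by the series) or to CD28 or PDGFR sequences (called outside), received biotin-phenol for 30 min before 1 min of hydrogen peroxide at 1 mM, and streptavidin beads then enriched the biotin-tagged RNA. There were 4 labeled and 4 control libraries for Lyn11 and 3 and 3 for Lck, CD28 and PDGFR, called biological replicates and unlabeled controls in the series' design text. The labels give the same protocol for labeled and control samples, so which step the controls lacked is not known here, and neither is whether each cell line was 1 clone. All 8 groups carry an APEX2 fusion, and no line without one was analysed here.

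Reads could be recovered from the deposited values for 24808 genes and summed to 19.55 to 34.85 M reads in the 14 inside libraries and 11.35 to 16.26 M in the 12 outside libraries, so depth and side of the membrane cannot be told apart. CD28 labeled replicate 2 and PDGFR control replicate 2 had 3133 and 3001 genes at 0 reads, against 23 to 1533 in the other libraries, and values without both are given where they matter. All 9 HEK293T markers (PAX2, KRT8, KRT18, VIM, NES, NEFL, NEFM, CDH2 and LIN28B) were among the tested genes, with summed levels of 6.80 to 7.50 log2 FPKM in labeled and 6.75 to 7.50 in control libraries. Fibroblast markers (3 of 5 with a row; 2.26 to 3.37 labeled and 2.40 to 3.29 control) and neuron markers (4 of 5; 2.43 to 3.001 and 2.52 to 2.98) also had overlapping ranges, and their part in the results was not tested. FPKM is a share of the RNA sequenced, so less RNA of a gene per cell and fewer cells that hold it cannot be told apart.

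The stretches of 250 bases before the annotated starts of EGR1, EGR2 and NAB1 are shown because they differ in the motifs by which this family is known to be switched on and to regulate its own partners. Capitals mark CArG boxes, the serum response factor motif of 10 letters, and EGR sites (GCGNGGGCG), both searched on either strand; the sequences are from RefSeq on GRCh38.p14, 5′ to 3′ on the gene's strand.
EGR1: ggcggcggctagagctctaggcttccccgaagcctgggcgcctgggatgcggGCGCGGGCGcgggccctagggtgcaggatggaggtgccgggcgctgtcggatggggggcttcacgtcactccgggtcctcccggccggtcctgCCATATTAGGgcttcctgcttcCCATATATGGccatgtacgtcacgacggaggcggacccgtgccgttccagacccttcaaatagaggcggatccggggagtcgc
EGR2: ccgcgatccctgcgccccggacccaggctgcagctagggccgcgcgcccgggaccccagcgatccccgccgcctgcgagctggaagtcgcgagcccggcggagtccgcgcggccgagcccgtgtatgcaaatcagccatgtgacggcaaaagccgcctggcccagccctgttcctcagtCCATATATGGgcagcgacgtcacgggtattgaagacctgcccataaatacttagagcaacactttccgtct
NAB1: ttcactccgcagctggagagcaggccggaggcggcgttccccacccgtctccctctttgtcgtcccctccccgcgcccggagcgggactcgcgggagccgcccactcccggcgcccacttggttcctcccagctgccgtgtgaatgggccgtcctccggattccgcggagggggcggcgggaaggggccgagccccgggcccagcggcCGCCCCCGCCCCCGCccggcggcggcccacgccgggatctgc
They cover chr5:138465229-138465478 (plus strand), chr10:62816367-62816616 (minus strand) and chr2:190648645-190648894 (plus strand). EGR1 held 2 CArG boxes, beginning 105 and 83 bases before the start (chr5:138465374-138465383 and chr5:138465396-138465405), and 1 EGR site. EGR2 held 1 CArG box and no EGR site at this start, and neither motif at its 2 other RefSeq starts. NAB1 held no CArG box and 2 EGR sites that share 3 letters at the start shown, and 3 and 0 EGR sites with no CArG box at its 2 other starts. The window with 3 sites (chr2:190648833-190649082) overlaps the one shown and includes its 2 sites. The window of NAB2, of which 220 bases lie in annotated exons, held 1 EGR site and no CArG box. Among 35116 RefSeq promoters of the same length, 1.16% held a CArG box and 0.0313% at least 2. An EGR site was held by 8.41%, and at least 2 by 1.31%. The promoter set held starts for 5 of the 6 genes, 9 in all, whether or not they had a motif. It held none for EGR3, whose promoter was not examined. The half-site of the cAMP response element, TGACG, also searched on either strand, was found 2 times in EGR1 and 2 times in EGR2 at the start shown. It was also found 2 times in the window of EGR4 and 1 time at each of the 2 NAB1 starts not shown. At least 1 was found in 21.2% of promoters and at least 2 in 4.76%. These are matches of letters only.

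EGR1 (ENSG00000120738.7, chromosome 5, 138465490 to 138469315 on hg38) stood at 4.20, 3.52, 3.93 and 3.79 log2 FPKM in the 4 Lyn11 labeled libraries (1345, 884, 1178 and 1019 reads). In the 4 Lyn11 controls it stood at 0.29, -0.35, 0.13 and -0.23 (119, 56, 84 and 62 reads). Every labeled library lay more than 3 log2 units above every control. The Lck labeled libraries were at 4.25, 3.89 and 3.78 (1268, 1105 and 1032 reads) and the Lck controls at -0.48, -0.43 and -0.42 (46, 53 and 49 reads), the tightest control group of this gene. Averages of linear FPKM were 14.7 and 0.99 with Lyn11 and 15.9 and 0.74 with Lck. Labeled minus control was 3.90 ± 0.38 log2 units with Lyn11 and 4.41 ± 0.44 with Lck (± standard error of the fit).

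On the outer side the levels were lower and more scattered. EGR1 stood at 1.11, 0.05 and 1.54 log2 FPKM in CD28 labeled libraries (97, 45 and 133 reads) and at -1.56, 0.16 and -2.17 in CD28 controls (14, 43 and 8 reads). The CD28 groups overlapped, because replicate 2 was the lowest labeled library and the highest control. PDGFR labeled libraries were at 0.92, 1.36 and 0.47 (87, 118 and 61 reads) and PDGFR controls at -1.34, -0.63 and -1.12 (21, 27 and 20 reads), with no overlap. The differences were 2.09 ± 0.44 with CD28 and 1.95 ± 0.44 with PDGFR. That of CD28 ranged from 1.60 without control replicate 3 to 2.76 without control replicate 2, and those of CD28 and PDGFR were 2.51 and 2.15 without both libraries that stood apart. No test is given for labeled minus control in the EGR and NAB genes, since they were proposed with that contrast's results for EGR1 and EGR3 known.

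Ordered by mean level, EGR1 was at 3.97 ± 0.25 in Lck labeled, 3.86 ± 0.28 in Lyn11 labeled, 0.92 ± 0.45 in PDGFR labeled, 0.90 ± 0.77 in CD28 labeled, -0.04 ± 0.30 in Lyn11 control, -0.44 ± 0.03 in Lck control, -1.03 ± 0.36 in PDGFR control and -1.19 ± 1.21 in CD28 control libraries (log2 FPKM, SD, n = 4 for Lyn11 and 3 for the others). Neighbours in this order that differed by less than the larger of their SDs were Lck and Lyn11 labeled, PDGFR and CD28 labeled, and PDGFR and CD28 control. All labeled group means thus lay above all control group means.

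**Figure D1:**
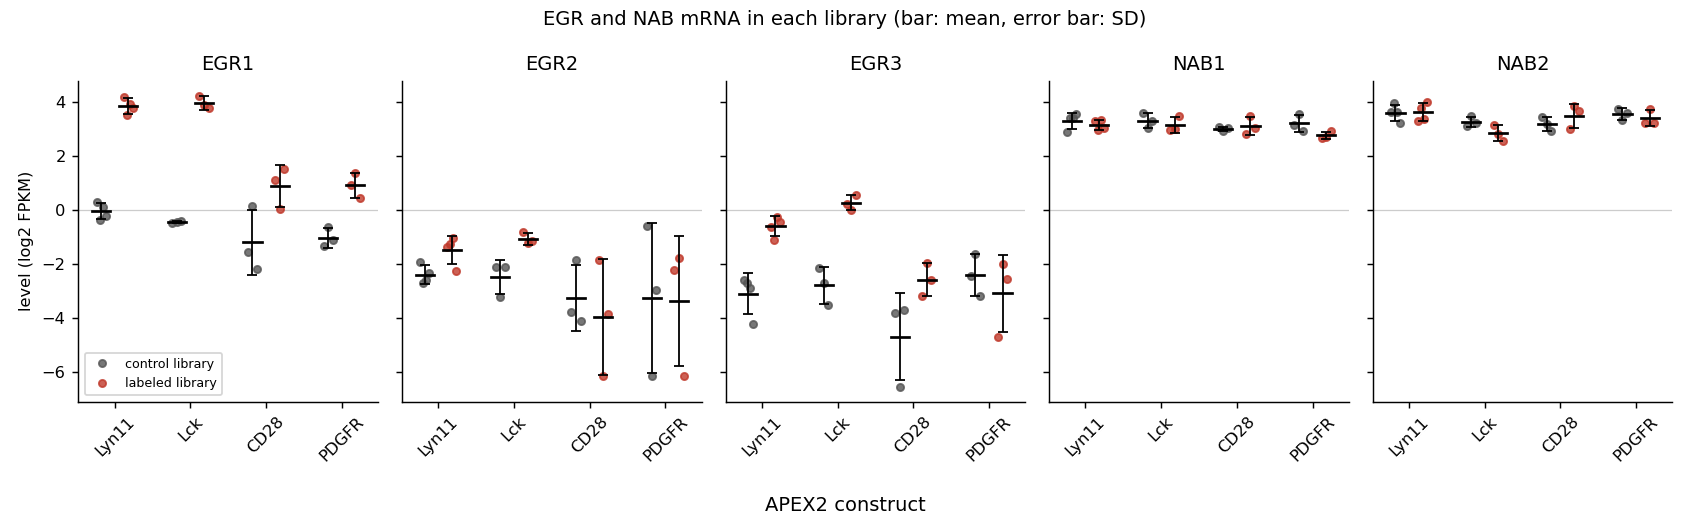
Level of each gene (vertical axis, log2 FPKM) in every library, by construct (horizontal axis), with labeled libraries in red, controls in grey, the group mean as a bar and the SD as an error bar. EGR1 is near 4 in labeled Lyn11 and Lck libraries and between -2.17 and 0.29 in all controls, while NAB1 and NAB2 lie between 2.58 and 4.01 throughout.

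EGR3 (ENSG00000179388.8, chromosome 8, 22687659 to 22693302), a family member known for its roles in muscle spindles and lymphocytes, was a rarer RNA. It stood at -0.61, -1.11, -0.24 and -0.44 log2 FPKM in Lyn11 labeled libraries (73, 54, 100 and 83 reads) and at -2.57, -2.71, -2.89 and -4.20 in Lyn11 controls (24, 16, 15 and 5 reads). In Lck labeled libraries it was at 0.23, 0.03 and 0.57 (120, 116 and 172 reads), against -2.13, -2.71 and -3.51 in Lck controls (22, 16 and 8 reads). Neither pair of groups overlapped, and the differences were 2.50 ± 0.68 and 3.06 ± 0.79. EGR3 entered the genes tested only through Lck labeled libraries, the only 3 in which it exceeded a log2 FPKM of 0.

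With the outer constructs EGR3 rested on few reads. CD28 labeled libraries had 7, 17 and 11 reads (-3.18, -1.94 and -2.60 log2 FPKM) and CD28 controls 4, 0 and 4 (-3.83, -6.55 and -3.69). The groups did not overlap, but the difference of 2.12 ± 0.79 fell to 1.19 without control replicate 2, the library with 0 reads, a count that allows up to 3. PDGFR labeled libraries had 2, 17 and 11 reads (-4.70, -2.01 and -2.56) and PDGFR controls 15, 21 and 7 (-2.43, -1.61 and -3.17). PDGFR was the only construct in which EGR3 was lower on average in labeled libraries, by -0.68 ± 0.79, and this turned to 0.12 without labeled replicate 1. Lck and Lyn11 labeled libraries ranked highest (0.28 ± 0.28 and -0.60 ± 0.37, SD, n = 3 and 4), each apart from the next group by more than the larger SD. The 6 groups below them, from -2.40 in PDGFR control to -4.69 in CD28 control libraries, each differed from the next by less than that. An annotated RNA on the opposite strand, AC055854.1, shares 164 of the 4855 exon bases of EGR3.

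EGR2 (ENSG00000122877.15, chromosome 10, 62811996 to 62919900), known for its part in hindbrain patterning and myelination, never reached a log2 FPKM of 0 in any library and was left out of the tested genes. It had 32, 37, 43 and 17 reads in Lyn11 labeled libraries and 29, 12, 14 and 16 in their controls, or -1.48 ± 0.53 against -2.39 ± 0.35 log2 FPKM (SD, n = 4 and 4). These groups overlapped through Lyn11 labeled replicate 4. Lck labeled libraries had 44, 36 and 39 reads and Lck controls 17, 8 and 17 (-1.06 ± 0.23 against -2.48 ± 0.64, SD, n = 3 and 3), with no overlap. The outer constructs showed no common direction: CD28 labeled libraries had 14, 0 and 3 reads against 3, 12 and 2, and PDGFR labeled libraries 11, 15 and 0 against 42, 0 and 6. A fit without the filter gave differences of 0.91 ± 1.02, 1.42 ± 1.18, -0.70 ± 1.18 and -0.14 ± 1.18 for Lyn11, Lck, CD28 and PDGFR. With the outer constructs these values of EGR2 rest on 0 to 42 reads, and each difference was smaller than its standard error. No detection limit was computed.

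NAB1 (ENSG00000138386.16, chromosome 2, 190646746 to 190692766) and NAB2 (ENSG00000166886.12, chromosome 12, 57088894 to 57095476) were well covered, with at least 460 and 285 reads in every library. NAB1 stood at 3.31, 2.97, 3.35 and 3.06 log2 FPKM in Lyn11 labeled libraries and at 2.89, 3.41, 3.41 and 3.58 in their controls. In Lck libraries it was at 2.98, 3.01 and 3.50 labeled and 3.61, 3.06 and 3.30 control, and in CD28 libraries at 2.83, 3.51 and 3.04 against 3.07, 2.92 and 3.04. All of these groups overlapped. PDGFR was the exception, with 2.68, 2.72 and 2.94 labeled and 3.17, 3.57 and 2.94 control, where every labeled library lay below every control, replicate 3 of each by only a narrow margin. The differences of NAB1 were -0.14 ± 0.18, -0.16 ± 0.21, 0.11 ± 0.21 and -0.45 ± 0.21 for Lyn11, Lck, CD28 and PDGFR. They were -0.08 with CD28 and -0.28 with PDGFR without both libraries that stood apart.

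Labeled and control libraries of NAB2 overlapped with all 4 constructs. It stood at 3.30, 3.79, 3.40 and 4.01 log2 FPKM in Lyn11 labeled libraries against 3.63, 3.97, 3.64 and 3.25. Lck libraries were at 3.17, 2.83 and 2.58 labeled and 3.12, 3.49 and 3.24 control, and only labeled replicate 1 reached into the range of the controls. CD28 libraries were at 3.00, 3.85 and 3.67 labeled against 3.47, 3.21 and 2.94, and PDGFR libraries at 3.25, 3.76 and 3.23 against 3.77, 3.34 and 3.59. The differences were 0.003 ± 0.21, -0.42 ± 0.24, 0.30 ± 0.24 and -0.15 ± 0.24 in the same order, and the CD28 value was 0.13 without CD28 labeled replicate 2. STAT6, which lies tail to tail with NAB2 and shares 69 of its 3010 exon bases on the opposite strand, differed by -0.09 ± 0.16, -0.20 ± 0.19, 0.12 ± 0.19 and -0.07 ± 0.19, and without strand information reads from that overlap cannot be told apart. Antisense genes share 10 and 186 of the 4887 exon bases of NAB1. Over the 8 groups, neighbours in the order of NAB1 or of NAB2 differed by less than the larger SD, except CD28 control above PDGFR labeled libraries for NAB1 (3.01 ± 0.08 and 2.78 ± 0.14) and CD28 control above Lck labeled libraries for NAB2 (3.21 ± 0.27 and 2.86 ± 0.29, SD, n = 3 each).

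Counted over the 5 genes, every labeled library lay above every control for 2 with Lyn11 (EGR1 and EGR3), where 3.4% of all tested genes did so, and for 3 with Lck (EGR1, EGR2 and EGR3), where 12.9% did. It was 1 gene with CD28 (EGR3), against 7.44%, and 1 with PDGFR (EGR1), against 7.53%. NAB1 with PDGFR was the 1 case of labeled libraries below all controls, against 6.39%. The family was chosen by these differences of EGR1 and EGR3, so the counts are a description and no independent evidence. EGR3 passed the filter only through Lck labeled libraries. EGR2 did not pass it and is not among the tested genes behind these shares.

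**Figure D2:**
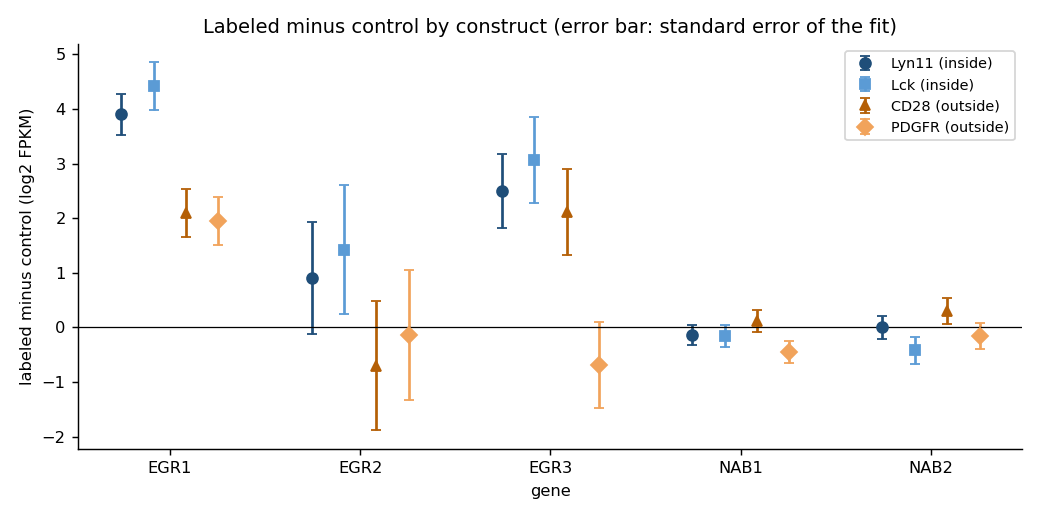
Labeled minus control difference (vertical axis, log2 FPKM, with the standard error of the fit) for each gene (horizontal axis) and construct. EGR1 lies at 3.90 and 4.41 with the inside constructs and at 2.09 and 1.95 with the outside ones, and the NAB genes lie between -0.45 and 0.30.

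EGR1 was set against NAB2 within each library. Log2 FPKM values are per length, so levels of different genes were set side by side. They are levels in the RNA sequenced after the streptavidin step, and amounts in the cell were not measured. NAB2 exceeded EGR1 in all 13 control libraries, with EGR1 minus NAB2 at -4.33 to -3.34 in the 7 inside and -5.11 to -3.05 in the 6 outside controls. In the 6 outside labeled libraries NAB2 was still higher (-3.79 to -1.89). In the 7 inside labeled libraries EGR1 minus NAB2 ran from -0.27 to 1.19, with a median of 0.90, and EGR1 was higher in 5, all but Lyn11 labeled replicates 2 and 4. The summed FPKM of EGR1, EGR2 and EGR3 had a median of 16.3 in inside labeled, 1.11 in inside control, 2.35 in outside labeled and 0.84 in outside control libraries, while that of NAB1 and NAB2 had medians of 19.8, 20.9, 18.6 and 19.6. EGR1 made up 87.6% to 94.6% of the EGR sum in inside labeled and 60.8% to 78.4% in inside control libraries. In outside libraries it made up 79.1% to 92.5% labeled and 31.9% to 79.6% control, ranges that overlapped slightly. NAB2 was above NAB1 in 18 of 26 libraries.

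**Figure D3:**
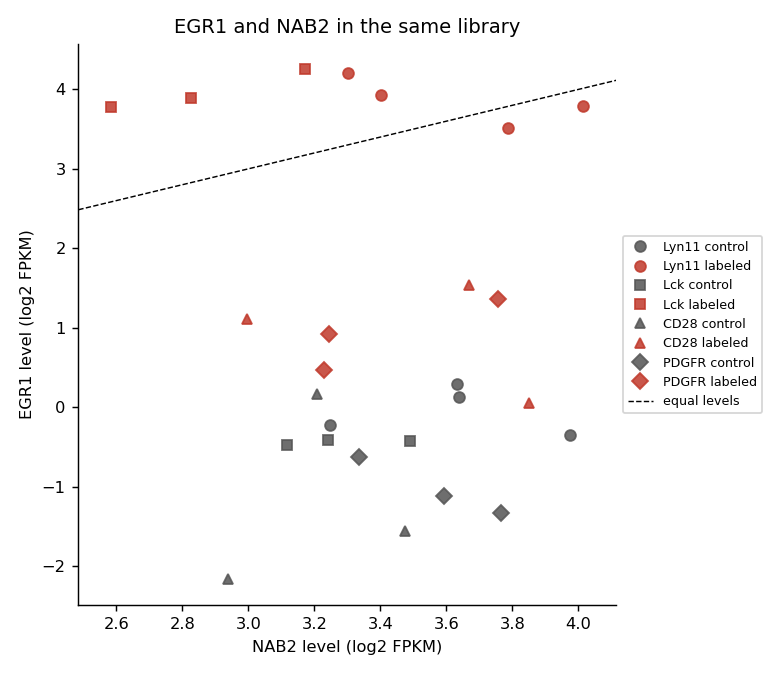
EGR1 level (vertical axis) against NAB2 level (horizontal axis) in the same library, both in log2 FPKM, with labeled libraries in red, controls in grey and 1 marker shape per construct. The 5 points above the dashed line of equal levels are inside labeled libraries, and the points spread mainly along the EGR1 axis.

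The differences on the inner side were set beside those on the outer side as a description, with no test, because EGR1 and EGR3 were chosen by the labeled minus control values that enter them. For EGR1 the inside average was 4.16 and the outside average 2.02 log2 units, or 2.14 ± 0.42 apart, and 1.83 apart without both libraries that stood apart. For EGR3 the averages were 2.78 and 0.72, or 2.06 ± 0.76 apart. NAB1 was 0.02 ± 0.20 and NAB2 -0.28 ± 0.23 apart.

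The control libraries of the constructs were compared with each other with limma over all 22284 tested genes, 4 of them EGR or NAB genes. The control values of EGR1 and EGR3 are part of the labeled minus control differences by which the family was chosen. EGR3 was among the tested genes only through its Lck labeled libraries and had 0 to 24 reads in controls. For these genes the intervals, p-values and calls below are a description and no independent evidence. EGR1 was 0.87 ± 0.30 log2 units higher in inside than in outside controls (95% interval 0.25 to 1.49). It did not pass the threshold (limma adjusted p = 0.0643), while 11.2% of all genes passed in that comparison. It passed without CD28 control replicate 2, the highest outside control, at 1.21 (adjusted p = 0.00555), and without CD28 labeled replicate 2, at 0.87 (adjusted p = 0.0418). EGR3, NAB1 and NAB2 differed by 0.61 ± 0.54, 0.20 ± 0.14 and 0.07 ± 0.16 (limma adjusted p = 0.506, 0.392 and 0.842). Across the 4 control groups, none of the 4 genes passed the limma F test (adjusted p = 0.174 for EGR1 and 0.181 for EGR3), where 7.28% of all genes did. At an unadjusted p under 0.05 there was 1 gene (EGR1) in the comparison of sides and 2 (EGR1 and EGR3) in the F test, against 26.6% and 24.8% of all genes. Limma voom passed 0 in both, with 1 and 0 genes at an unadjusted p under 0.05.

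The genes around the family were described by 5 lists, tested for the average of the 4 labeled minus control differences, for which 4.29% of all genes rose and 3.08% fell with a median of -0.01. The list of other immediate early genes had 38 tested of 44, of which 17 rose and 2 fell, with a median of 0.33. The list was made with earlier results of these libraries known. Its count, and the p-values and calls of its genes, are therefore a description and no independent evidence of direction. FOS, an AP-1 subunit, rose by 2.70 ± 0.32 (limma adjusted p = 8.83e-06), from a mean of -1.33 to 1.45 log2 FPKM. CCN1, a secreted matrix protein, rose by 1.13 ± 0.13, ARC, a regulator of synaptic receptors, by 0.94 ± 0.22, GADD45B, a stress sensor, by 0.85 ± 0.12, HBEGF, a ligand of the EGF receptor, by 0.84 ± 0.18, and DUSP1, a phosphatase that switches off MAP kinases, by 0.72 ± 0.13. Each of these 6 was higher in labeled libraries of all 4 constructs. Of the other 11 rises, named after their values were seen, FOSB at 1.78 ± 0.15, SGK1 at 1.23 ± 0.17 and PHLDA1 at 0.76 ± 0.18 had mean levels under a log2 FPKM of 0, and JUN, IER5, JUND, MCL1, ATF3, RHOB, DUSP5 and PPP1R15A rose by 0.32 to 0.54. Without both libraries that stood apart 17 rose and 2 fell. The falls, named after their values were seen, were ZFP36L1 at -0.30 ± 0.09, an mRNA decay factor, and KLF6 at -0.19 ± 0.06, a zinc finger factor. They were called in 11 and 9 of 36 alternatives. Of the 17 rises 13 were called in every alternative, ATF3 in 35, JUND in 14, RHOB in 13 and DUSP5 in 9.

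Of the genes that act before and after the EGR proteins, 1 passed the test, in a contrast where 4.29% of all genes rose and 3.08% fell. The share of all genes at an unadjusted p under 0.05 was not computed for it, so unadjusted counts are given as values only. Of 26 genes of the growth factor and MAP kinase input, from EGFR to SRF and ELK1, 0 passed in either direction (limma; 2 higher and 0 lower at an unadjusted p under 0.05; 0 with limma voom), with a median of 0.02. SRF itself, the factor that binds CArG boxes, differed by 0.23 ± 0.09 (limma adjusted p = 0.16) and ELK3, a ternary complex factor, by 0.20 ± 0.11. Of 29 tested genes known as EGR targets (41 listed), 0 rose and 1 fell, with a median of 0.04. PTGES, a prostaglandin synthase, differed by 0.30 ± 0.16 and ICAM1, an adhesion receptor, by -0.50 ± 0.30, the latter -0.20 without CD28 labeled replicate 2. ICAM1, PHLDA1, ELK3, GATAD2B and PLEKHM2 share exon bases with other annotated genes, so their reads are uncertain in part.

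The partners of the NAB proteins were also tested, in the same contrast (4.29% of all genes rose and 3.08% fell). At such shares a short list can hold 0 genes that pass, so these counts do not set the lists apart from other genes. Of 15 NuRD subunits, 0 passed (limma; 1 higher and 0 lower at an unadjusted p under 0.05; 0 with limma voom), with a median of -0.02, and HDAC1, a deacetylase, and GATAD2B, a scaffold subunit, differed by 0.16 ± 0.08 and -0.25 ± 0.17. Of 14 tested zinc finger genes of the SP, KLF and WT1 kind, which bind similar GC-rich DNA, 0 passed (limma; 1 higher and 1 lower at an unadjusted p under 0.05; 0 with limma voom), with a median of -0.06. KLF5 differed by 0.24 ± 0.09 and SP8 by -0.34 ± 0.16, both of them transcription factors.

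**Figure D4:**
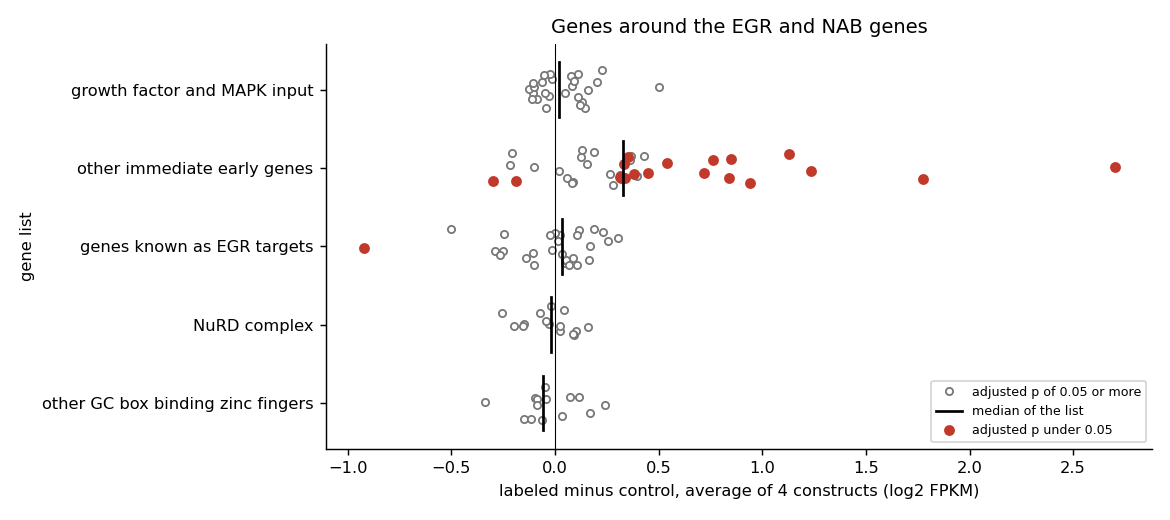
Labeled minus control difference averaged over the 4 constructs (horizontal axis, log2 FPKM) for each tested gene of 5 lists (vertical axis), with filled points for an adjusted p under 0.05 and a black line at each list's median. The 17 filled points to the right of 0 and their median of 0.33 are in the list of other immediate early genes, and the medians of the other lists lie between -0.06 and 0.04.

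The genes whose levels followed EGR1 most closely over the 26 libraries, among 13439 with a symbol and a mean log2 FPKM of at least 1, were MYLIP, a ubiquitin ligase for lipoprotein receptors (Pearson r = 0.88), TUFT1 (0.87), THUMPD3-AS1 (0.86), PPP1R15A, a regulator of eIF2 alpha dephosphorylation (0.85), ACP4, an acid phosphatase (0.84), and CSRNP2, a nuclear protein (0.84). These correlations are descriptions, and the libraries share the split into labeled and control groups that sets most of the range of EGR1. ACP4 stood at 4.40, 4.82, 3.55 and 4.51 log2 FPKM in Lyn11, Lck, CD28 and PDGFR labeled libraries and at 1.69, 1.72, 2.01 and 1.64 in their controls. MYLIP stood at 3.79, 3.85, 3.09 and 3.25 against 2.87, 2.80, 2.97 and 2.87. For MYLIP, as for EGR1, the Lyn11 and Lck labeled means were the highest, and for ACP4 the PDGFR labeled mean exceeded that of Lyn11. THUMPD3-AS1 shares 660 exon bases with THUMPD3 on the opposite strand. The closest to NAB2 were ACTR1B (0.89), a dynactin subunit, PLEKHM2 (0.88), a kinesin adaptor, and AKR1A1 (0.88), an aldehyde reductase. The group means of these 3 genes ran from 3.85 log2 FPKM (PLEKHM2, Lck labeled) to 4.71 (ACTR1B, Lyn11 labeled).

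Over the 26 libraries EGR1 and EGR3 correlated at r = 0.73 and EGR1 and EGR2 at 0.49. After the 8 group means were taken out these became -0.39 and 0.37. NAB1 and NAB2 correlated at -0.05, and EGR1 with NAB1 and NAB2 at -0.09 and -0.14. EGR2 and EGR3 have few reads in many libraries, so their values carry counting error.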

How the data were processed

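Values were deposited by the authors as log2 FPKM for 25745 genes in 26 libraries. HISAT2 2.1.0, edgeR and hg38 stand in the submitters' processing notes. With GENCODE 29 exon lengths, the shared lowest values of 3810 of 3811 genes fell on 1 constant, and 100.0% of values under 100 reads in 24075 genes came out whole within 0.05, so reads were recovered and depth is known. The sources used here do not say whether reads were counted by strand.

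The 22284 genes above a log2 value of 0 in at least 3 libraries were fitted with limma 3.58.1 (R 4.3.3): 8 group means, an intensity trend and Benjamini-Hochberg adjustment over all of them, with a threshold of 0.05. The tests compared control levels between constructs and, for the lists, the average labeled minus control difference. The genes and lists were chosen with earlier results of these data known, so the labeled minus control differences of the EGR and NAB genes, and planned comparisons of these between constructs, are given without a test. The tests of the lists, and those of the control levels of EGR1 and EGR3, are descriptions for the same reason. From each list, up to 6 genes past the threshold with the largest average difference and a mean log2 value of at least 0 are named, or the 2 largest where fewer than 2 passed, with the 6 genes most correlated with EGR1 and the 3 most correlated with NAB2. The fit was tested on simulated data with changes planted in inside labeled libraries, of which the average contrast found only a part. Among genes with no planted change, the comparison of control sides made 3 calls and the control F test 37. A gene that did not pass may therefore still differ. Alternatives were 10 other settings and leaving out each of 26 libraries. Same-numbered labeled and control libraries deviated together in only 3 of 13 pairs (r over 0.1), so numbers were not used as pairs. Some genes of the lists and marker sets are not reported here.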

Additional observations from a re-analysis of the deposited data

Results flagged for a closer look

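Within groups of 4 libraries, the distance of the highest or lowest library from the rest was compared with Dixon's critical value for the genes named here. In 58 such groups 2 libraries stood apart, and chance flags about 1 in 20 groups. GADD45B was at 3.48 log2 FPKM in Lyn11 control replicate 1, against 2.58 to 2.71 in the other Lyn11 controls. CSRNP2 was at 3.27 in the same library, against 2.92 to 2.97.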

How the results depend on the processing

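EGR1 passed in the comparison of inside with outside controls with median centring (0.95), with weights by construct (0.87) and without both libraries that stood apart (0.97), so the count of EGR and NAB genes was 1 there and 0 to 1 when single libraries were left out. That of the control F test was 0 to 1, with EGR1 passing without CD28 control replicate 2. The difference of EGR3 between controls reversed to -0.53 with quantile normalization, and that of NAB1 in the labeling effect to -0.054 with median centring and ran from -0.068 to 0.113 without single libraries. The cause was not tested.

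Among other immediate early genes, 12 to 20 rose in the other settings and 14 to 22 without single libraries. The number that fell was 0 with the stricter filter, median centring, quantile normalization, weights by construct or the replicate block, 1 with a prior count of 5 or limma voom, and 0 to 3 without single libraries. EGR targets that rose numbered 1 without a filter and 0 to 1 without single libraries. Those that fell numbered 0 with the stricter filter, median centring or the replicate block, 2 without both libraries that stood apart, and 0 to 1 without single libraries. The MAP kinase input and GC-box lists had 0 to 1 genes higher without single libraries. EGR2 could be fitted only without a filter.

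With the replicate block the labeling effect of EGR1 differed between sides by 2.14 and that of EGR3 by 2.06, and 13 other immediate early genes rose. Control contrasts have no blocked value, since the block separates the constructs. EGR2 had at most 44 reads in any library, and EGR3 at most 21 with the outer constructs. Whether depth or a low level of the RNA accounts for this was not tested.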
